A study of Mus musculus with 24 samples.

Results

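The 9 long noncoding RNA genes described here are Malat1, Neat1, Meg3, Rian, Mirg, Miat, Snhg11, Snhg14 and Kcnq1ot1. They were taken by symbol from the count tables of the hippocampus, where they are 9 of 55254 listed genes, and all 9 passed the filter on low counts in both cell fractions. The nuclei came from the hippocampus of male C57BL/6N mice at the age of 6 months and were sorted by NeuN, the protein product of Rbfox3, into a neuronal NeuN+ fraction and a NeuN- fraction of glia and other cells. Nuclear RNA of each fraction was sequenced in 3 replicates of wild type (WT), Mutyh-/-, Ogg1-/- and the double knockout Mutyh-/-xOgg1-/- (DKO), 24 libraries in all. Ogg1 and Mutyh encode DNA glycosylases of base excision repair. The study asked whether the loss of these enzymes alters nuclear transcripts in neurons and glia. Nuclei were pooled over animals of a genotype, and whether a replicate is an animal, a pool or a share of a pool could not be worked out, so p-values measure the spread between these libraries, which may be technical.

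Many long noncoding RNAs stay in the nucleus, where a nuclear library can read them. Malat1 gathers at nuclear speckles, where splicing factors are stored, and Neat1 is the RNA scaffold of paraspeckles, bodies that hold RNA-binding proteins. Meg3, Rian and Mirg are read in the same direction from the maternal chromosome of the imprinted Dlk1-Dio3 region, and they host microRNAs and small nucleolar RNAs. Snhg14 is a long host transcript of small nucleolar RNAs that starts near Snrpn on the paternal chromosome and, in neurons, runs antisense through Ube3a and keeps the paternal Ube3a copy silent. Kcnq1ot1 is read from the paternal chromosome, antisense to Kcnq1, and silences genes of its imprinted neighbourhood. Miat, also called Gomafu, is a nuclear RNA of neurons that binds splicing factors, and Snhg11 is a small nucleolar RNA host gene that is abundant in neurons.

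On GRCm38, Malat1 lies at chr19:5795690-5802672 and Neat1 at chr19:5824708-5845478, both on the minus strand and 22.0 kb apart. Meg3 lies at chr12:109541001-109571726, Rian at chr12:109603940-109661716 and Mirg at chr12:109729764-109749460, all on the plus strand, with 32.2 kb between Meg3 and Rian and 68.0 kb between Rian and Mirg. Miat is at chr5:112213228-112229395 on the minus strand and Snhg11 at chr2:158375638-158386145 on the plus strand. Snhg14, at chr7:59307924-59975759, and Kcnq1ot1, at chr7:143203458-143296549, are on the minus strand and span 667.8 and 93.09 kb, against 6.983 kb for Malat1. The annotation gives Malat1, Neat1 and Kcnq1ot1 as a single exon block each, and it lists Snhg11 as protein coding although its symbol names a noncoding host gene.

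The start regions of 3 members are printed because Meg3 leads the Dlk1-Dio3 noncoding series, Kcnq1ot1 starts inside Kcnq1, and Malat1 is the most abundant RNA of these libraries. Each is a window of 300 bases around a transcript start, from RefSeq on GRCm38.p6, and capitals mark the motifs found: the cAMP response element TGACGTCA, the TATA box TATAAA, the CCAAT box CCAAT and the GC box GGGCGG, each searched on both strands.
Meg3, chr12:109540746-109541045, plus strand: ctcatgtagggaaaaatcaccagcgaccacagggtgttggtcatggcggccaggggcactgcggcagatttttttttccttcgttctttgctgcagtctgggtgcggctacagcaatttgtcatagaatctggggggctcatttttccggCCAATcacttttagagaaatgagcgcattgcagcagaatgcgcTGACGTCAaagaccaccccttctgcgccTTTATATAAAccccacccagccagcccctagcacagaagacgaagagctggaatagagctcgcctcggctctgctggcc
Kcnq1ot1, chr7:143296498-143296797, minus strand: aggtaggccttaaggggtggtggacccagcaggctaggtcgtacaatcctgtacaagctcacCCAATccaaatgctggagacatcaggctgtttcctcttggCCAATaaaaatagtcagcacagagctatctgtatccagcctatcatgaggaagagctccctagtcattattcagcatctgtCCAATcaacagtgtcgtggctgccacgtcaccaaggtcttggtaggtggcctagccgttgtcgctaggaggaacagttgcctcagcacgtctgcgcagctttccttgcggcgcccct
Malat1, chr19:5802623-5802922, minus strand: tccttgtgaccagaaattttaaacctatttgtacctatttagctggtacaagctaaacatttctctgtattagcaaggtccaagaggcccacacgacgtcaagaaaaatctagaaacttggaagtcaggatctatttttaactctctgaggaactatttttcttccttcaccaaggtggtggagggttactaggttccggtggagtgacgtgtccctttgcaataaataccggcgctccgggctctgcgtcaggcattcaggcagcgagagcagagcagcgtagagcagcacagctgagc
The Meg3 window printed here holds 1 cAMP response element, 1 CCAAT box and, in a single run of 10 letters, 2 overlapping TATA boxes on opposite strands. RefSeq lists another Meg3 start, with the window chr12:109545148-109545447, which holds none of the 4 motifs and 1 CG dinucleotide. The Kcnq1ot1 window holds 3 CCAAT boxes, and the Malat1 window holds none of the 4 motifs. Of 32851 mouse start regions of the same length, 1.79% hold the cAMP response element, 13.6% the TATA box, 37.4% the CCAAT box and 35.7% the GC box. CG dinucleotides numbered 13 in the printed Meg3 window, 9 in the Kcnq1ot1 window and 10 in the Malat1 window. A match is a description of letters and not a binding site, and no start region of Neat1 was used here.

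Mirg is known as a host of microRNAs, so some of them are shown with the seed, bases 2 to 8, in capitals. By RefSeq coordinates, 26 mature microRNAs of 14 genes lie within Mirg, with 25 different seeds, against 6 of 3 genes within Rian and 3 of 2 genes within Meg3. The microRNAs themselves were not measured. The first line is miR-134-5p, known for its work at dendritic spines, and the last pair shares its seed, the only pair within Mirg to do so.
miR-134-5p: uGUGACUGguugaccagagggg
miR-485-3p: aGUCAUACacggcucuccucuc
miR-377-3p: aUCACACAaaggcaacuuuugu
miR-410-3p: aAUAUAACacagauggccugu
miR-453: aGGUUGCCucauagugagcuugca
miR-496a-5p: aGGUUGCCcaugguguguuca

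Total counts per library ranged from 56563586 to 96192142. Levels below are counts per 1000000 (CPM) after scaling all 24 libraries together with TMM factors. The sort was reflected in the markers: the summed level of 8 neuron markers was 5053 to 5868 CPM in NeuN+ libraries and 572 to 706 CPM in NeuN- libraries, and that of 5 oligodendrocyte markers was 117 to 140 and 4501 to 6765 CPM. The fractions were sequenced in separate lanes, so lane and cell fraction cannot be told apart. Ogg1 was not lower in the libraries labelled Ogg1-/-, at 3.46 ± 0.227 CPM in NeuN+ against 3.29 ± 0.502 in WT (SD, n = 3), and Mutyh was higher in those labelled Mutyh-/-, at 10.9 ± 0.901 against 1.23 ± 0.0718 CPM. A gene count cannot show whether the deleted part was read, and genotypes are named as labelled.

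Malat1 was the most abundant gene of both fractions, Meg3 and Snhg14 were among the leading genes of NeuN+, and Neat1 was the only member with a much higher level in NeuN-. The 9 genes together took 2.51 to 2.68% of the counts of a NeuN+ library and 1.99 to 2.15% of a NeuN- library. Malat1 alone took 1.46% ± 0.0578 of the counts in NeuN+ and 1.91% ± 0.0683 in NeuN- (SD, n = 12) and ranked 1 of 33523 genes in both. In NeuN+, Meg3 ranked 11, Snhg14 13, Snhg11 148, Rian 164, Miat 274, Kcnq1ot1 420, Mirg 1690 and Neat1 6725. In NeuN-, the order behind Malat1 was Neat1 at rank 213, Snhg14 at 434, Meg3 at 481, Kcnq1ot1 at 808, Snhg11 at 2444, Rian at 2996, Miat at 3984 and Mirg at 11112. The rank of Neat1 in NeuN+ thus stood below that of Mirg, whereas in NeuN- it was next to Malat1 among the members.

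Per kilobase of gene span, the scale used here to compare genes, the order changed because the spans differ so much. The feature that was counted is not given in the sources used here, and span was taken because genes nested within another gene had no higher count than the outer gene in 1183 of 1185 pairs on opposite strands without shared exons. Over exons alone the order would differ, most of all for Snhg14, whose exons make up 26.09 kb. In WT NeuN+, Malat1 had 2304 ± 134 CPM per kb, Meg3 148 ± 2.48, Snhg11 89.8 ± 2.69, Miat 34.1 ± 1.1 and Rian 14.3 ± 0.849 (SD, n = 3). The long Snhg14 had 6.42 ± 0.216 CPM per kb, Mirg 5.43 ± 0.227, Kcnq1ot1 4.12 ± 0.255 and Neat1 1.17 ± 1.11. Each neighbouring pair in this order was separated by more than the SD of either gene, including Kcnq1ot1 and Neat1. In WT NeuN-, Malat1 had 2397 ± 83.6 CPM per kb, Neat1 24.4 ± 3.44, Meg3 10.4 ± 0.867, Snhg11 8.25 ± 0.714, Miat 3.30 ± 0.0763 and Kcnq1ot1 1.93 ± 0.0342. Rian had 1.12 ± 0.111 CPM per kb, Snhg14 0.540 ± 0.0400 and Mirg 0.454 ± 0.0709, and the libraries of the last pair overlapped.

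**Figure D1:**
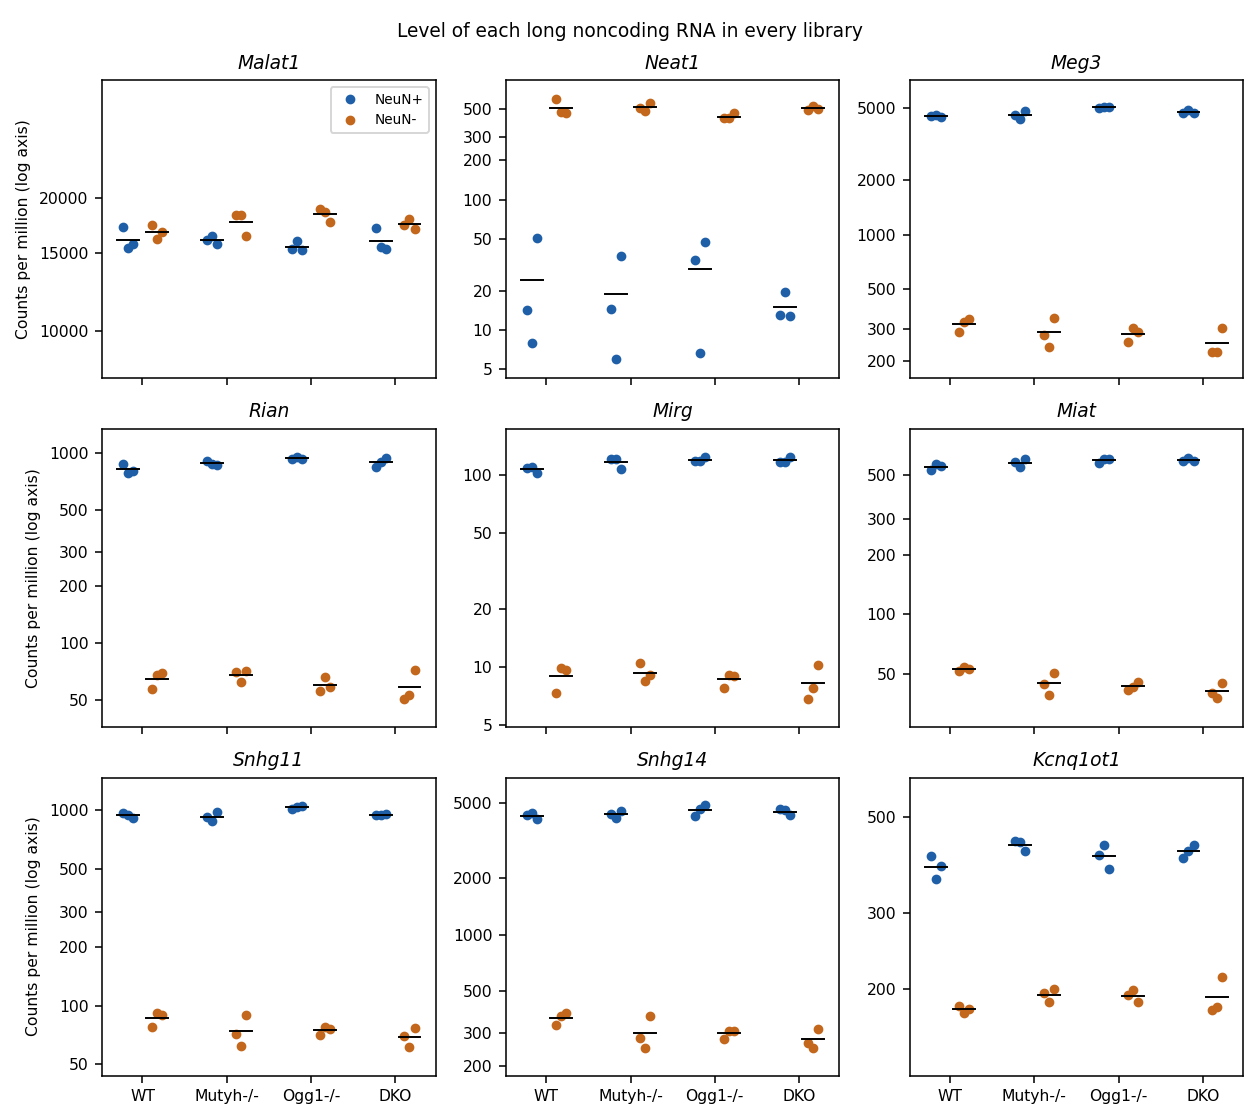
Level of each of the 9 genes in all 24 libraries, in CPM on a log axis, with genotype along the horizontal axis, 3 libraries per group as points and the group mean as a bar. NeuN+ libraries are blue and NeuN- libraries orange. Malat1 is at a similar height in both fractions, Neat1 is higher in NeuN- and scattered in NeuN+, and the other 7 genes are higher in NeuN+.

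Between the fractions of WT, 7 members were higher in NeuN+, Neat1 was lower and Malat1 did not pass the test. The call here needed an adjusted p under 0.05 and a log2 difference beyond 1 in edgeR's quasi-likelihood test over 33523 genes, and 42.9% of all genes were called, 21.3% as higher in NeuN+. The same 8 members were called in the same direction within Mutyh-/-, Ogg1-/- and DKO, where 43.9%, 43.9% and 44.4% of genes were called. Fractions did not overlap for 8 members in WT and DKO and for all 9 in Mutyh-/- and Ogg1-/-, as for 76.1% of genes in WT, 74.5% in DKO, 75.1% in Mutyh-/- and 76.1% in Ogg1-/-. In bulk fractions, fewer cells of a type and less RNA per cell cannot be told apart.

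The Dlk1-Dio3 members rose strongly in NeuN+. Meg3 was at 4551, 4601 and 4451 CPM in WT NeuN+ and at 289.7, 328 and 341 CPM in WT NeuN-, a log2 difference of 3.83 (SE 0.124, edgeR adjusted p = 8.10e-18). Every NeuN+ library stood far above every NeuN- library. Rian was at 879, 786 and 806 CPM in NeuN+ and at 57.3, 67.5 and 69.2 in NeuN-, a log2 difference of 3.67 (SE 0.108, edgeR adjusted p = 1.70e-18). Mirg, the least abundant of the series, was at 108.3, 110.5 and 101.9 CPM in NeuN+ and at 7.33, 9.86 and 9.61 in NeuN-, a log2 difference of 3.58 (SE 0.121, edgeR adjusted p = 1.78e-17). Their ratios within a library do not depend on scaling. Rian had 18.7% ± 0.958 of the Meg3 count in NeuN+ and 22.2% ± 2.1 in NeuN-, and Mirg had 2.44% ± 0.160 and 3.11% ± 0.369 (SD, n = 12). In WT, Rian had 17.1 to 19.3% of the Meg3 count in NeuN+ and 19.8 to 20.5% in NeuN-, and Mirg had 2.29 to 2.40% and 2.53 to 3.00%. Rian to Meg3 was higher in every NeuN- library than in every NeuN+ library within each of the 4 genotypes, and Mirg to Meg3 within all but Mutyh-/-, whereas both ranges overlapped over the 12 libraries of each fraction. Of 9 listed protein-coding and other neighbours, 8 were tested and 6 were called higher in NeuN+, where 21.3% of all genes were, among them Rtl1 at 3.50 and Dlk1 at 2.73, whereas Wdr25 and Ppp2r5c at the edges of the region had log2 differences of -0.07 and 0.01. Dio3, the thyroid hormone deiodinase, and Dio3os are 2 of the 6 and passed the low-count filter through NeuN+, with 0 to 2 and 1 to 4 counts per WT NeuN- library and 15 to 30 and 13 to 31 per NeuN+ library. The median of the 8 was 3.12 and that of the 6 tested without these 2 was 2.36, against -0.01 over all genes.

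Snhg14 was at 4312, 4421 and 4135 CPM in WT NeuN+ and at 330.2, 370.0 and 381 in WT NeuN-, a log2 difference of 3.57 (SE 0.114, edgeR adjusted p = 6.43e-18). The difference for Ube3a, the ubiquitin ligase gene that it overlaps, was 2.72, and Snhg14 had 622% ± 48.4 of the Ube3a count in NeuN+ and 291% ± 34.7 in NeuN- (SD, n = 12). These ratios did not overlap between fractions, with a lowest value of 536% in NeuN+ and a highest of 333% in NeuN-. The genes lie on opposite strands and share 3.61 kb, 0.541% of the span of Snhg14 and 4.36% of that of Ube3a, with 1803 exon bases in common, and how the counting used strand is not given in the sources used here. Of 10 listed neighbours 9 were tested, and 7 were called higher in NeuN+, where 21.3% of all genes were. Among the 7 were Snrpn at 2.20 and the GABA receptor gene Gabra5 at 3.91. Mkrn3 fell, from 96 to 152 counts per WT NeuN- library to 1 to 3 per NeuN+ library. Atp10a at 0.96 did not reach the fold limit.

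Miat and Snhg11 also had large differences toward NeuN+. Miat was at 532, 567 and 556 CPM in WT NeuN+ and at 52.1, 54.5 and 53.4 in WT NeuN-, a log2 difference of 3.37 (SE 0.0765, edgeR adjusted p = 3.29e-20). Snhg11 was at 969.7, 949 and 914 CPM in NeuN+ and at 78.2, 92.3 and 89.7 in NeuN-, a log2 difference of 3.45 (SE 0.104, edgeR adjusted p = 2.39e-18). Neither gene had overlapping fractions. Miat shares 2260 exon bases with Gm26953 on the other strand, whose count was 66.1% of that of Miat in NeuN+ and 65.9% in NeuN-. That is 24.3% of the exon bases of Miat and 49.9% of those of Gm26953, and reads from the shared stretch cannot be told apart without strand.

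Kcnq1ot1 had a smaller difference, with 407, 359 and 384 CPM in WT NeuN+ against 182, 176 and 179.9 in WT NeuN-. The log2 difference was 1.09 (SE 0.0636, edgeR adjusted p = 3.86e-13), close to the fold limit, and 1.15, 1.07 and 1.13 in Mutyh-/-, Ogg1-/- and DKO. Without TMM factors, which moved the median of all genes by -0.22 to -0.28 in these comparisons, it was 0.86, 0.93, 0.83 and 0.85 in WT, Mutyh-/-, Ogg1-/- and DKO and no longer called. Kcnq1ot1 spans 29.0% of Kcnq1, and its count was 96.9% ± 0.828 of the Kcnq1 count in NeuN+ and 98.1% ± 0.611 in NeuN- (SD, n = 12). Counts by position were not used here, so how many reads the rows share was not measured. The Kcnq1 row, with a log2 difference of 1.11, was not read as a separate result. Of the other listed genes of this imprinted region, 5 of the 9 tested fell from NeuN- to NeuN+ and none rose. Over all genes 42.9% were called in either direction and 21.3% as higher in NeuN+. The 5 include the cell-cycle inhibitor Cdkn1c, lower by 3.69, and Cd81, a tetraspanin, by 2.62 on the log2 scale. They also include Ascl2, which passed the low-count filter through NeuN-. It had 9 to 14 counts per WT NeuN- library and 1 to 4 per NeuN+ library, and 4 fell without it. Of those 4, Cdkn1c and Slc22a18 were also near the floor in WT NeuN+, at 0.130 ± 0.106 and 0.103 ± 0.0241 CPM. In WT NeuN- they were at 1.69 ± 0.234 and 0.572 ± 0.140 CPM (SD, n = 3).

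Malat1 was at 17149.6, 15401 and 15707 CPM in WT NeuN+ and at 17322, 16154 and 16744 in WT NeuN-. The WT fractions overlapped, with a log2 difference of -0.06 (SE 0.0559, 95% interval -0.17 to 0.06, edgeR adjusted p = 0.362). In Mutyh-/-, Ogg1-/- and DKO the difference was -0.14, -0.25 and -0.13 (edgeR adjusted p = 0.0317, 4.65e-04 and 0.0470), past the p threshold but far under the fold limit. Without TMM factors the WT value became -0.29, about the shift of all genes.

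Neat1 was the member with the opposite direction. It was at 588, 471 and 459 CPM in WT NeuN- and at 14.3, 7.99 and 50.9 in WT NeuN+, a log2 difference of -4.37 (SE 0.635, edgeR adjusted p = 1.97e-06). The SE was 5 or more times that of each other member. The highest NeuN+ library was still below every NeuN- library in all 4 genotypes. Relative to Malat1 in the same library, Neat1 had 0.140% ± 0.104 of its count in NeuN+ and 2.80% ± 0.359 in NeuN- (SD, n = 12). Of 10 listed neighbours of the Malat1-Neat1 region, 5 were called lower in NeuN+ and 0 higher, with a median of -0.94, where 42.9% of all genes were called in either direction. Frmd8 at -1.61 (SE 0.621) and Pola2 at -1.01 (SE 0.365) are 2 of the 5, and both were among the most variable genes of NeuN+, as given with the spread of Neat1.

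**Figure D2:**
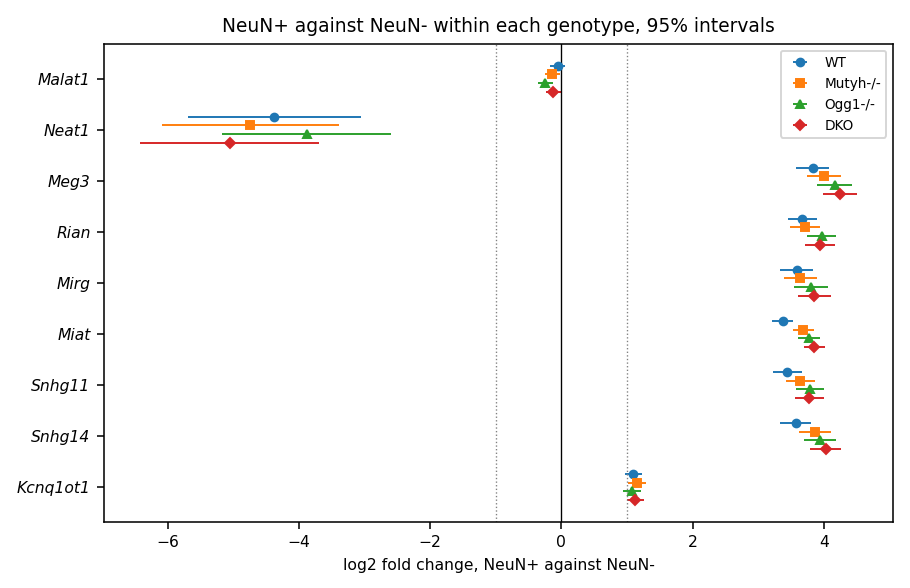
Log2 difference of WT, Mutyh-/-, Ogg1-/- and DKO between NeuN+ and NeuN- for each of the 9 genes, from the fit of all 24 libraries, with 95% intervals. Positive values are higher in NeuN+. Of the genes, 6 sit above 3, Kcnq1ot1 near 1, Malat1 near 0 and Neat1 below -3 with wide intervals.

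Neat1 in NeuN+ differed more between replicates than nearly every other gene. It was at 14.5, 5.98 and 36.8 CPM in Mutyh-/-, at 34.6, 6.71 and 47.1 in Ogg1-/- and at 12.99, 19.43 and 12.92 in DKO, beside the WT values above. Replicate 2 was the lowest of WT, Mutyh-/- and Ogg1-/-, replicate 3 was the highest of those groups, and the highest of 12 libraries was 8.5-fold above the lowest. The counts behind these values were 309 to 3840 per library. The SD of the log2 level within groups was 1.18, rank 5 of the 20409 genes with a mean of at least 1 CPM in NeuN+, whose median was 0.103. In NeuN-, the SD of Neat1 was 0.121 and its level was 419 to 588 CPM.

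Markers of glia did not spread in the same way. Over the 12 NeuN+ libraries the summed level of 5 oligodendrocyte markers was 117 to 140 CPM, that of 6 astrocyte markers 271 to 358 CPM and that of 5 microglia markers 84.5 to 89.7 CPM. In WT replicate 3, the library with the highest Neat1 level, the sums were 123, 294 and 85.0 CPM.

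Genes beside Neat1 spread as well, each with its own pattern over libraries. Of the 57 genes with at least 1 CPM within 500 kb of Malat1, 5 were among the 20 most variable of NeuN+, namely Neat1, Frmd8, Slc25a45, Tigd3 and Pola2. All 5 lie upstream of the Malat1 start, between 22.0 and 137.9 kb away. This window and the limit of 20 genes were chosen after the values were seen, so the count is a description. Slc25a45, which encodes a mitochondrial carrier, ranked 1 of 20409 with an SD of 2.33, and was at 49.4, 102.4 and 0.215 CPM in WT and at 52.9, 29.9 and 1.84 in Ogg1-/-. Frmd8 had an SD of 1.16 and was at 140.1, 9.90 and 27.0 CPM in WT. Tigd3 was at 8.91 CPM in Mutyh-/- replicate 3 and at 0.665 to 1.90 in the other libraries, and Pola2 was at 21.8 CPM in Ogg1-/- replicate 3 and at 3.89 to 5.23 elsewhere. The libraries that were high thus differed from gene to gene: Neat1 was high and Slc25a45 nearly absent in WT replicate 3 and Ogg1-/- replicate 3, whereas both were high in Mutyh-/- replicate 3. In NeuN-, Slc25a45 also spread, from 9.31 to 255 CPM (rank 7 of 20824). What these genes share with Neat1 was not tested, and Malat1 itself had an SD of 0.0647 in NeuN+.

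**Figure D3:**
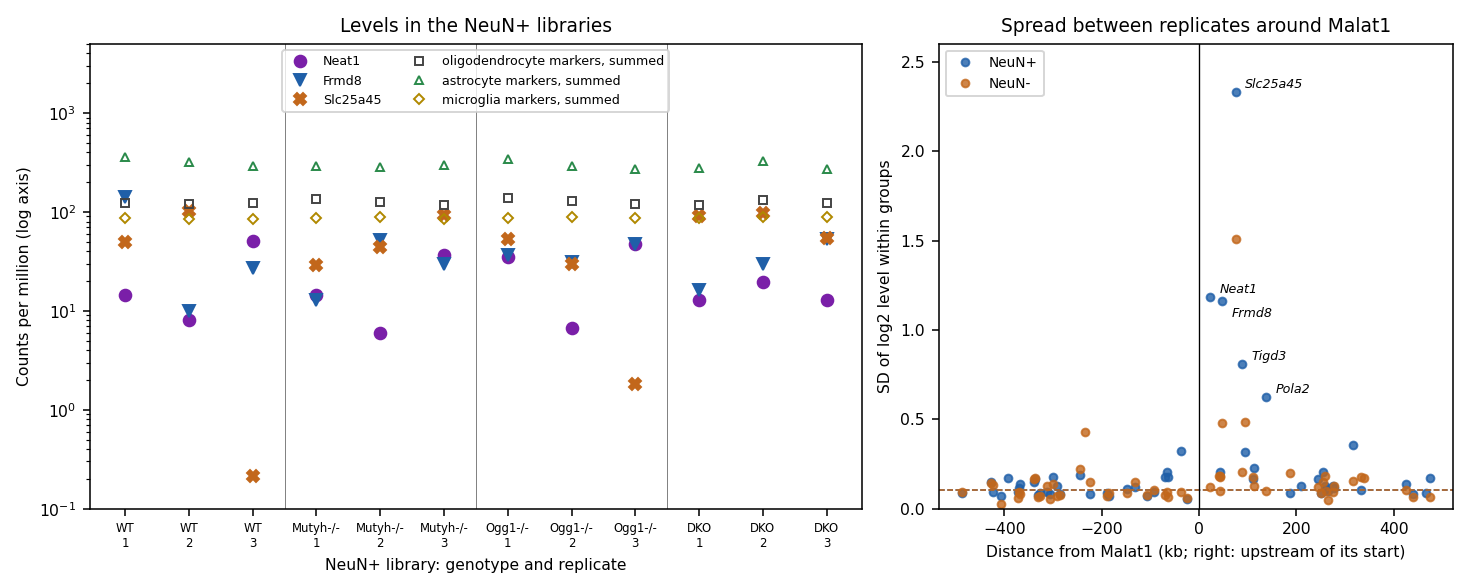
Left, levels in CPM on a log axis in the 12 NeuN+ libraries for Neat1, Frmd8 and Slc25a45 and for the summed markers of oligodendrocytes, astrocytes and microglia. Right, SD of the log2 level within groups for genes within 500 kb of Malat1 against their distance from it, in both fractions, with dashed lines at the median of all genes with at least 1 CPM. The glial sums are nearly level, while Neat1 ranges from 5.98 to 50.9 CPM and the genes with the largest SD lie on the upstream side.

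Against WT, no member was called in any knockout or fraction. A call needed an adjusted p under 0.05 and a log2 fold change beyond 0.5 in edgeR's quasi-likelihood test, and DESeq2 also called 0 members in each of the 6 comparisons. In NeuN+, 0 of 9 members were called in Mutyh-/-, Ogg1-/- and DKO, where 0.428%, 0.574% and 0.302% of 30132 genes were called. At an unadjusted p under 0.05 there were 3, 4 and 3 members, against 18.7%, 12.3% and 13.5% of all genes. In NeuN-, 0 of 9 were called against 0.273%, 0.229% and 0.116% of 31863 genes, and 1, 2 and 4 members had an unadjusted p under 0.05, against 13.7%, 11.8% and 12.4% of all genes. The 3 comparisons of a fraction share the WT libraries.

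Some members stood apart from WT in every library without being called. In NeuN+, 1, 5 and 3 members had every knockout library above every WT library in Mutyh-/-, Ogg1-/- and DKO, against 10.4%, 11.1% and 9.13% of all genes. None had every library below, as 11.2%, 8.98% and 8.35% of genes did. In NeuN-, 1, 3 and 3 members had every knockout library below every WT library, against 9.49%, 9.84% and 8.42% of genes, and 1, 2 and 0 had every library above, against 9.78%, 9.53% and 8.43%.

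In NeuN+ the Ogg1-/- libraries had the 5 members apart from WT. Rian was at 936, 957 and 927 CPM, a log2 fold change of 0.17 (SE 0.0494, edgeR adjusted p = 0.117), and Meg3 was at 4994, 5078 and 5107 CPM, at 0.14 (SE 0.0419, adjusted p = 0.136). Both stood above all 3 WT libraries given above. Mirg at 118, 119 and 124 CPM, Miat at 578, 606 and 602 and Snhg11 at 1017, 1035 and 1051 were also above WT, with log2 fold changes of 0.15, 0.09 and 0.12 (edgeR adjusted p = 0.265, 0.428 and 0.252). Snhg14 overlapped with WT at 4277, 4639 and 4879 CPM. By DESeq2, Meg3 and Rian had adjusted p = 0.0403 and 0.0431 at log2 fold changes of 0.14 and 0.18, below the fold limit, and over all alternatives the adjusted p ran from 0.0403 to 0.362 for Meg3 and from 0.0431 to 0.445 for Rian. Beside these values, the 8 neuron markers summed to 5144 to 5657 CPM in Ogg1-/- and 5053 to 5418 in WT, with Nefl, a neurofilament gene, called lower at -0.58, the choroid plexus markers summed to 17.1 to 20.42 CPM against 20.46 to 28.5, and the part of the neuronal makeup in these values was not tested.

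In the other NeuN+ comparisons the members apart from WT were fewer. In DKO, Meg3 at 4728, 4886 and 4724 CPM, Mirg at 116, 117 and 123 and Miat at 591, 610.0 and 587 stood above all WT libraries, with log2 fold changes of 0.06, 0.14 and 0.10 (edgeR adjusted p = 0.562, 0.297 and 0.368). Beside these values, the precursor markers of oligodendrocytes summed to 2.14 to 2.63 CPM in NeuN+ DKO, below all WT libraries at 3.02 to 3.89, and the microglia markers to 86.8 to 88.8 CPM, above WT at 84.5 to 86.3, and their part was not tested. Of the microglia markers, P2ry12 was at 41.2 ± 0.852 CPM in DKO against 38.7 ± 2.66 in WT (SD, n = 3). Cx3cr1 and Aif1 also had higher means in DKO than in WT, and Csf1r and Tmem119 lower ones. In Mutyh-/-, Kcnq1ot1 stood above all WT libraries at 440.4, 436 and 417 CPM, a log2 fold change of 0.17 (SE 0.0546, edgeR adjusted p = 0.120). Without Mutyh-/- replicate 3 it was at 0.21 (edgeR adjusted p = 0.0487, in a range of 0.0487 to 0.357 over the alternatives) and Mirg at 0.19 (edgeR adjusted p = 0.0390, range 0.0390 to 0.544), both under the fold limit. The summed neuron markers were also higher there in every library, at 5434 to 5868 CPM against 5053 to 5418 in WT. Kcnq1ot1 relative to that sum was at -3.72 ± 0.0279 on the log2 scale against -3.77 ± 0.0403 in WT (SD, n = 3), and the ranges overlapped. Of the other members above WT in NeuN+ by CPM, Rian in Ogg1-/- was also above WT relative to the neuron sum, at -2.52 ± 0.0451 against -2.67 ± 0.0360 (SD, n = 3), and the 4 others of Ogg1-/- and the 3 of DKO overlapped with WT. On that measure 6.04% of genes were above WT in Ogg1-/- and 10.7% below it. Malat1 was at 16089, 16396 and 15703 CPM in Mutyh-/-, at 15274, 15929 and 15269.8 in Ogg1-/- and at 17125, 15495 and 15339 in DKO, within or overlapping the WT range in each, but relative to the neuron sum it was below WT in Mutyh-/- and Ogg1-/-, as were 22.8% and 10.7% of genes. Its log2 fold changes were 0.0037, -0.07 and -0.02, with 95% intervals that reached no further than -0.18 and 0.11. For Neat1 they were -0.34, 0.25 and -0.71 with 95% intervals from -2.20 to 1.71, so wide that those of Mutyh-/- and Ogg1-/- ran beyond 1 log2 unit on both sides. Leaving out 1 library turned the sign in each knockout. The values ran from -1.24 to 0.80 for Mutyh-/-, from -0.28 to 1.39 for Ogg1-/- and from -1.12 to 0.43 for DKO, and the highest of each came without WT replicate 3.

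In NeuN-, Miat was the member whose knockout libraries never overlapped with WT. Against 52.1, 54.5 and 53.4 CPM in WT, it was at 44.8, 39.6 and 50.8 in Mutyh-/-, at 41.6, 43.2 and 45.9 in Ogg1-/- and at 40.4, 38.2 and 45.2 in DKO. All 9 knockout libraries were below all 3 WT libraries. In the single comparisons 9.49%, 9.84% and 8.42% of genes were below WT. The share of genes below WT in all 3 knockouts together is not given here, and the 3 comparisons share the WT libraries. The log2 fold changes were -0.25, -0.30 and -0.38 (SE 0.0866, 0.0868 and 0.0868; edgeR adjusted p = 0.247, 0.206 and 0.132), so none was called. An adjusted p under 0.05 was reached under single alternatives in each knockout, with the value still under the fold limit. By DESeq2 DKO was at -0.37 (adjusted p = 0.00779, in a range of 0.00779 to 0.325 over the alternatives). With only the groups compared, Ogg1-/- was at -0.30 (edgeR adjusted p = 0.0380, range 0.0380 to 0.476), and without Mutyh-/- replicate 3, Mutyh-/- was at -0.34 (edgeR adjusted p = 0.0494, range 0.0494 to 0.578).

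Snhg14 in NeuN- was at 280.3, 249 and 368 CPM in Mutyh-/-, at 279, 308 and 309 in Ogg1-/- and at 266, 249 and 315 in DKO. The Ogg1-/- and DKO libraries were below all WT libraries and Mutyh-/- overlapped, with log2 fold changes of -0.28, -0.28 and -0.39 (edgeR adjusted p = 0.371, 0.423 and 0.282). Snhg11 showed the same order, at 71.6, 62.0 and 89.9 CPM in Mutyh-/-, 70.9, 77.6 and 76.0 in Ogg1-/- and 69.9, 61.4 and 76.6 in DKO. Its log2 fold changes were -0.23, -0.22 and -0.33 (edgeR adjusted p = 0.439, 0.524 and 0.316). Meg3 overlapped with WT in every knockout, at -0.16, -0.19 and -0.35 (edgeR adjusted p = 0.673, 0.678 and 0.360), and Rian and Mirg had log2 fold changes between -0.15 and 0.06. Single libraries carried much of the Mutyh-/- values. Without Mutyh-/- replicate 3 Snhg14 was at -0.45 (edgeR adjusted p = 0.0467, in a range of 0.0467 to 0.740 over the alternatives, still under the fold limit), Snhg11 at -0.38 and Meg3 at -0.32, and without replicate 2 they were at -0.16, -0.11 and -0.0429.

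The neuron markers of the NeuN- libraries give values to set beside these. Their summed level ran from 631 to 706 CPM in WT and was 633 to 653 for Mutyh-/-, 596 to 660.1 for Ogg1-/- and 572 to 636 for DKO. The knockout ranges overlapped with WT in each case. All 8 were detected, and their median log2 fold changes were -0.11, -0.26 and -0.30 with 0 called. Rbfox3, the gene of the sorting antigen, was at -0.17, -0.31 and -0.43, and Syt1, a synaptic vesicle gene, at -0.11, -0.29 and -0.31. Map2 was at -0.0210, 0.0194 and -0.0254 and Gad1, which makes GABA, at -0.15, -0.0411 and -0.11, so the markers differed among themselves. Astrocyte markers summed to 2789 to 3314 CPM in WT NeuN- and to 2853 to 3745, 3247 to 4112 and 3468 to 3628 in the knockouts, and the DKO libraries were above all WT libraries. The 5 oligodendrocyte markers summed to 5911 to 6645 CPM in WT NeuN- and to 5505 to 6765, 5045 to 5667 and 4501 to 5578, and the 3 precursor markers to 377 to 429.6 CPM in WT and to 363 to 399, 332 to 395 and 340.3 to 362. The oligodendrocyte sums of Ogg1-/- and DKO and the precursor sum of DKO were below all WT libraries. So were the endothelial sum of Ogg1-/-, at 16.1 to 19.0 CPM against 19.1 to 21.2, and the choroid plexus sum of Mutyh-/-, at 24.8 to 29.5 against 40.1 to 67.0. Map2, which hardly changed, made up 302 of the 676 CPM of the mean neuron sum in WT NeuN-. It made up 308 of 619 CPM in Ogg1-/- and 298 of 595 CPM in DKO. Values relative to the sum are thus not adjusted for the markers that differed more. Relative to the neuron sum, Snhg14 stayed below all WT libraries in Ogg1-/- and DKO, at -1.05 ± 0.0771 and -1.11 ± 0.101 on the log2 scale against -0.91 ± 0.0235 in WT (SD, n = 3). Miat and Snhg11 stayed below WT in DKO, at -3.85 ± 0.0584 against -3.66 ± 0.0630 and at -3.11 ± 0.111 against -2.96 ± 0.0570, and overlapped with it in Ogg1-/-, as did Miat in Mutyh-/-. On that measure 4.04%, 2.19% and 1.26% of genes were below WT in Mutyh-/-, Ogg1-/- and DKO, and 15%, 19.8% and 27.3% were above it. Kcnq1ot1 was above WT in all 3 knockouts, Malat1 in Ogg1-/- and Rian in Mutyh-/-. The part of these markers in the values of Miat, Snhg14, Snhg11 and Meg3 was not tested.

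Kcnq1ot1 and Malat1 went the other way in NeuN-. Kcnq1ot1 was at 195, 186 and 200.1 CPM in Mutyh-/- and at 194, 199 and 186 in Ogg1-/-, above the WT libraries in both, with log2 fold changes of 0.10 and 0.09 (edgeR adjusted p = 0.518 and 0.631), and at 178, 181 and 213 in DKO, overlapping with WT. Malat1 was at 18872, 18544 and 17667 CPM in Ogg1-/-, above all WT libraries, with a log2 fold change of 0.12 (SE 0.0612, edgeR adjusted p = 0.460). It overlapped with WT in Mutyh-/- and DKO, at 0.07 and 0.05. Neat1 was at 509, 482 and 556 CPM in Mutyh-/-, 419, 421 and 460.2 in Ogg1-/- and 486, 526 and 495 in DKO. Its log2 fold changes were 0.02, -0.23 and -0.02. The lowest adjusted p of these was 0.329, in Ogg1-/-, where oligodendrocyte markers summed to 5045 to 5667 CPM against 5911 to 6645 in WT, and their part in this value was not tested.

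**Figure D4:**
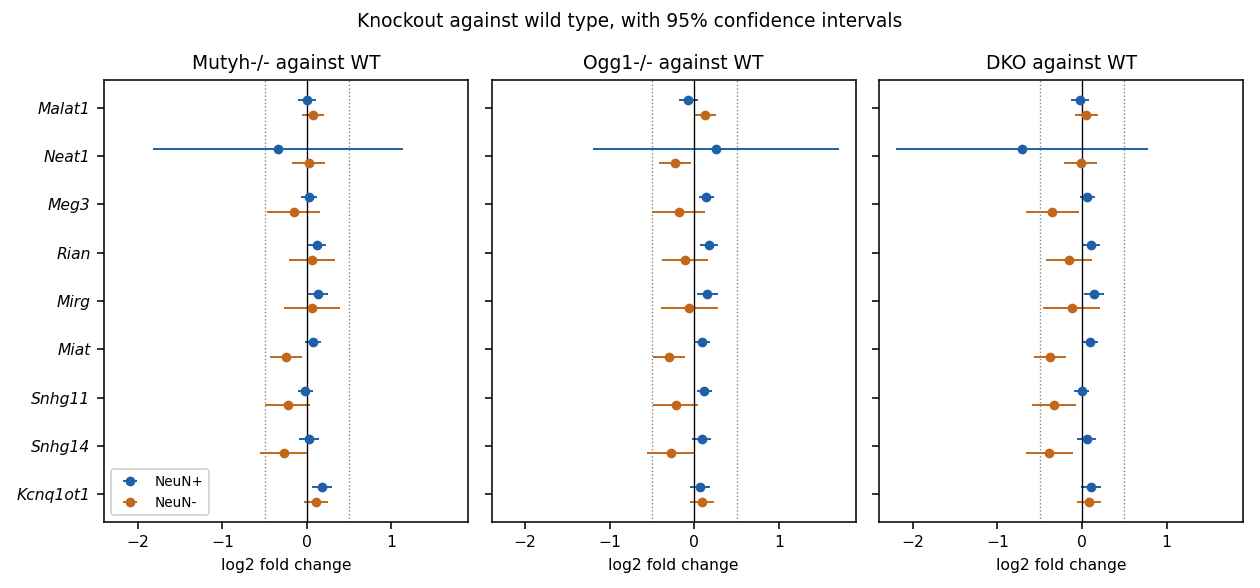
Log2 fold change of each gene against WT, in a separate panel for each of Mutyh-/-, Ogg1-/- and DKO. Each panel holds NeuN+ in blue and NeuN- in orange, with 95% intervals from edgeR and dotted lines at the fold limit of 0.5. No value was called. In NeuN-, Miat, Snhg11, Snhg14 and Meg3 lie below 0 in all 3 knockouts, and in NeuN+ the interval of Neat1 runs across both limits.

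The fraction of the NeuN+ level that was seen in NeuN- put the members beside neuron markers. In WT, NeuN- held 7.05% of the NeuN+ level of Meg3, 7.85% for Rian, 8.36% for Mirg, 8.40% for Snhg14, 9.18% for Snhg11 and 9.67% for Miat, and 46.8% for Kcnq1ot1. These are ratios of group means with no error. Among neuron markers the value was 6.17% for Rbfox3, 6.67% for Syt1, 10.9% for Slc17a7 and 11.8% for Snap25, and it reached 23.2% for Nefl, 27.7% for Gad1, 52.2% for Map2 and 53.9% for Tubb3. In DKO the values were lower for the 6 neuronal members, at 5.27% for Meg3, 6.53% for Rian, 6.94% for Mirg, 6.14% for Snhg14, 7.28% for Snhg11 and 6.92% for Miat. Of the neuron markers in DKO, Rbfox3 was at 3.95%, Syt1 at 5.15%, Slc17a7 at 8.25%, Snap25 at 10.6%, Tubb3 at 45.2% and Map2 at 51.5%, all below WT, whereas Nefl at 27.1% and Gad1 at 30.6% were above it. Kcnq1ot1 was at 45.8%.

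**Figure D5:**
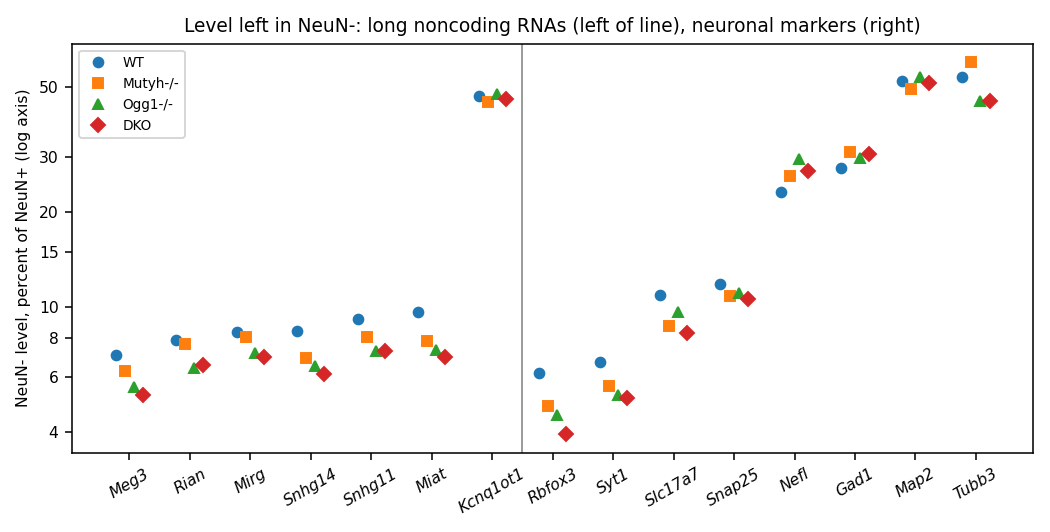
Mean level in NeuN- as a percent of the mean level in NeuN+ for 7 of the genes and for the 8 neuron markers, on a log axis, with a symbol per genotype. The ratios of group means carry no error bars. The 6 neuronal long noncoding RNAs lie between 5.27 and 9.67%, in the range of Rbfox3, Syt1, Slc17a7 and Snap25, and Kcnq1ot1 lies near Map2 and Tubb3.

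Whether a knockout acted differently in the fractions was tested by an interaction, on adjusted p alone. Of the 9 members 0 passed in Mutyh-/-, Ogg1-/- and DKO, against 0.0209%, 0.0537% and 0.0567% of 33523 genes, and 1, 6 and 4 had an unadjusted p under 0.05, against 8.58%, 7.09% and 9.40% of all genes. Miat had the smallest adjusted p, with a log2 difference between the effects of 0.48 in DKO (SE 0.0993), 0.40 in Ogg1-/- and 0.31 in Mutyh-/- (edgeR adjusted p = 0.0861, 0.266 and 0.349). Snhg14 had 0.45 and Meg3 0.42 in DKO (edgeR adjusted p = 0.322 and 0.397). The DKO difference of Miat passed under some other settings, by DESeq2 at 0.50 (adjusted p = 7.34e-04) and in edgeR with the replicate number as a block at 0.49 (adjusted p = 0.0279), and the Ogg1-/- difference passed by DESeq2 at 0.41 (adjusted p = 0.0254). Over all alternatives the adjusted p ran from 7.34e-04 to 0.269 in DKO and from 0.0254 to 0.578 in Ogg1-/-.

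The knockouts were also compared with each other, and 0 of 9 members were called in any of these 6 comparisons by edgeR or DESeq2. Without NeuN+ Mutyh-/- replicate 3, Snhg11 in Ogg1-/- against Mutyh-/- was at 0.17 (edgeR adjusted p = 0.0452, in a range of 0.0452 to 0.620 over the alternatives), under the fold limit. In NeuN+, 0.216% of genes were called between DKO and Ogg1-/-, 0.139% between DKO and Mutyh-/- and 0.485% between Ogg1-/- and Mutyh-/-, and in NeuN- 0.132%, 0.122% and 0.521%. At an unadjusted p under 0.05 there were Snhg11 in DKO against Ogg1-/- at -0.12, Meg3 and Snhg11 in Ogg1-/- against Mutyh-/- at 0.12 and 0.13 in NeuN+, and Neat1 in NeuN- at 0.21 in DKO against Ogg1-/- and -0.25 in Ogg1-/- against Mutyh-/-. In the same order, 4.26%, 6.86% and 12.7% of all genes had such a p in NeuN+ and 4.34%, 11.0% and 11.5% in NeuN-. A departure of DKO from the sum of the single knockouts was tested too, with 0 of 9 past an adjusted p of 0.05 against 0.159% of genes in NeuN+ and 0.122% in NeuN-, and only Rian in NeuN+, at -0.18 (SE 0.0699, edgeR adjusted p = 0.601), had an unadjusted p under 0.05, against 7.95% of genes there.

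Over the 12 NeuN- libraries, Pearson's r between pairs of the 6 neuronal members ran from 0.42 for Mirg and Miat (Spearman's rho 0.45) to 0.98 for Snhg11 and Snhg14 (rho 0.96). Mirg was also at 0.46 with Snhg11 and with Snhg14, and at 0.92 with Rian. These are descriptions over libraries that share depth, scaling and 4 genotypes, and they have no test. With the summed neuron markers, r in NeuN- ran from 0.68 for Mirg to 0.83 for Meg3 over these 6 members and was 0.05 for Kcnq1ot1. In NeuN+ it was 0.51 for Rian, 0.42 for Mirg, 0.04 for Miat, -0.17 for Meg3, -0.20 for Snhg14 and -0.34 for Snhg11, and 0.93 for Kcnq1ot1. With the summed astrocyte markers, r in NeuN- ran from -0.80 for Miat to -0.10 for Mirg over the 6 and was 0.73 for Malat1. Among genes of at least 10 CPM outside the 9, the closest to Meg3 in NeuN- was Trank1 (r = 0.98), and the closest to Snhg14 was the calcium channel gene Cacna1b (r = 0.97). In NeuN+ the closest to Rian was the glycosyltransferase gene Mgat5 (r = 0.96) and to Meg3 the heparan sulphate polymerase gene Ext2 (r = 0.94). The highest values were those of Kcnq1ot1 with Kcnq1 (r = 1.00) and of Miat with Gm26953 (r = 0.99) in NeuN+, pairs whose sequence overlaps.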

How the data were processed

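The authors aligned read pairs of nuclear RNA to GRCm38 (mm10) with HISAT2 2.1.0 and counted them per Ensembl gene with featureCounts, and they deposited raw counts per gene and library without normalization. How strand, overlapping genes and reads with several alignments were handled is not given in the sources used here. Counts were tested with R 4.3.3 and edgeR 4.0.16 (filterByExpr, TMM, quasi-likelihood test, Benjamini-Hochberg adjustment over all genes tested), with 30132 genes in NeuN+ and 31863 in NeuN- for genotypes and 33523 genes over all 24 libraries for fractions and interactions. DESeq2 1.42.0, other scalings, filters, samples, a replicate block and fits without a replicate were alternatives. CPM values use TMM factors of all 24 libraries, and levels for the SD within groups and for likeness are log2(CPM + 0.5). The fits were tested on simulated data. Gene positions came from GENCODE vM21 and sequences from RefSeq tables, both of GRCm38. The members and gene lists were chosen with earlier results of these data known. All 9 members, Ogg1 and Mutyh, tested locus neighbours, genes of other lists called against WT (or the 4 smallest p) and the 3 genes most like a member could be named. Frmd8, Slc25a45, Tigd3 and Pola2 were described after their spread was seen. Intervals cover the spread between these libraries.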

Additional observations from a re-analysis of the deposited data

Results flagged for a closer look

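In 3 cases every knockout library of NeuN+ stood above WT while every knockout library of NeuN- stood below it, 2 of 9 members in Ogg1-/- and 1 in DKO, where 0.629% and 0.412% of 33523 genes did so. For Miat, the log2 effect in NeuN+ exceeded that in NeuN- by 0.40 in Ogg1-/- (edgeR adjusted p of the interaction 0.266) and by 0.48 in DKO (adjusted p = 0.0861), with 3 of 3 libraries in each direction. For Snhg11 in Ogg1-/- the difference was 0.34 (adjusted p = 0.604). None passed the threshold of 0.05 in this fit. The DKO value of Miat passed with the replicate block (0.49, edgeR adjusted p = 0.0279) and by DESeq2, and the Ogg1-/- value of Miat passed by DESeq2 (0.41, adjusted p = 0.0254). Relative to the summed neuron markers none of the 3 cases was apart from WT in both fractions: Miat and Snhg11 in Ogg1-/- overlapped with WT in both, and Miat in DKO overlapped in NeuN+ and was below WT in NeuN-. In NeuN-, Map2, which hardly changed, made up 302 of 676 CPM of that mean sum in WT and 298 of 595 CPM in DKO. In the same NeuN- libraries the oligodendrocyte markers summed to 5045 to 5667 CPM in Ogg1-/- and 4501 to 5578 in DKO against 5911 to 6645 in WT, the astrocyte markers to 3247 to 4112 and 3468 to 3628 against 2789 to 3314, and the neuron markers to 596 to 660.1 and 572 to 636 against 631 to 706, and their part was not tested.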

How the results depend on the processing

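The 7 higher and 1 lower calls between fractions held in number under every alternative except total counts, where Kcnq1ot1 fell under the limit, and no fold limit, where Malat1 was added in the 3 knockouts. No member was called against WT or between knockouts under any alternative. The interaction count was 1 in place of 0 in Ogg1-/- with only the groups compared and with DESeq2, and in DKO it was 1 with no low-count filter, with a replicate block and with DESeq2, and 0 to 1 when single replicates were left out, always through Miat. Without NeuN- DKO replicate 3 the Miat value was 0.55 (edgeR adjusted p = 0.0139). The replicate block gave 0.49 (edgeR adjusted p = 0.0279) and changed no other call of a member. Replicate numbers were not taken to pair samples: deviations of samples with the same number correlated across genotypes at -0.244 to 0.248 in NeuN+ and -0.347 to 0.325 in NeuN-. Between NeuN+ and NeuN- of a genotype all 12 same-number correlations were above 0 (mean 0.162, 0.00216 to 0.341) against a mean of -0.0792 for different numbers, a hint of pairing from the data that did not exceed 0.1 in every pair.

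Log2 values near 0 changed sign and the cause was not tested. With total counts these were, in NeuN+ Mutyh-/-, Malat1 at -0.0369, Meg3 at -0.0167 and Snhg14 at -0.0160, then Neat1 in NeuN- Mutyh-/- at -0.0165 and the DKO interaction of Kcnq1ot1 at -0.0153. Malat1 in NeuN+ Mutyh-/- was -0.0010 with at least 10 counts in every library. Snhg11 in NeuN+ DKO was 0.0036 with DESeq2 size factors and with DESeq2, and 0.0111 with no filter.

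Leaving out single replicates moved Neat1 in NeuN+ between -1.24 and 0.80 in Mutyh-/-, -0.28 and 1.39 in Ogg1-/- and -1.12 and 0.43 in DKO, its interactions between -1.27 and 0.76, -0.0341 and 1.62, and -1.10 and 0.45, and its NeuN- values between -0.0444 and 0.14 in Mutyh-/- and -0.0844 and 0.10 in DKO. WT replicate 3 turned the sign of Neat1 in NeuN+ Mutyh-/- and DKO. Malat1 in NeuN+ ran from -0.0187 to 0.0461 in Mutyh-/- and -0.0758 to 0.0189 in DKO, Meg3 from -0.0060 to 0.0602 in Mutyh-/-, and Snhg11 from -0.0511 to 0.0116 in Mutyh-/- and -0.0204 to 0.0113 in DKO. In NeuN-, Mirg had a range of -0.0686 to 0.14 for Mutyh-/-, -0.19 to 0.0267 for Ogg1-/- and -0.30 to 0.0027 for DKO, Rian from -0.0220 to 0.11 in Mutyh-/- and Kcnq1ot1 from -0.0035 to 0.13 in DKO. Interactions ran from -0.0153 to 0.12 for Rian and -0.0224 to 0.18 for Mirg in Mutyh-/-, and for Kcnq1ot1 from -0.0673 to 0.0278 in Ogg1-/- and -0.0145 to 0.12 in DKO. Limits are 3 libraries a group, replicates of unclear origin, counting settings not known here and lanes split by fraction, whose effect was not measured.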

Other observations

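Genes whose products work with Malat1 and Neat1 were mostly within the fold limit between the fractions of WT, where 72.4% of 33523 genes had an edgeR adjusted p under 0.05 and 42.9% were also beyond the fold limit. Of 20 listed paraspeckle protein genes, such as Sfpq, Nono and Pspc1, 17 had such a p and 0 were called beyond a log2 difference of 1, with a median of 0.08 over the 20, and Dazap1 at -0.50 and Zc3h6 at 0.60 had the extreme values and were named after these were seen. Of 20 listed genes of nuclear speckles and splicing 19 were tested, 17 had an adjusted p under 0.05 and 1 was called, Celf3, a splicing factor of neurons, which rose in NeuN+ by 2.44, with a median of -0.21 over the 19. Son, a speckle scaffold gene, was at -0.79 and Srsf2, a splicing factor gene, at -0.68. Celf3, these and the genes named next were chosen after their values were seen.

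Other long noncoding RNAs were split. Of 35 listed, 32 were tested, 4 rose and 5 fell from NeuN- to NeuN+, against 42.9% of all genes called and 21.3% called higher, and the median was -0.12. Dlx6os1, a transcript of interneuron development, was higher in NeuN+ by 3.37 and the miR-124 host Mir124a-1hg by 3.23, while Sox2ot, which overlaps the progenitor gene Sox2, fell by 3.04 on the log2 scale. Against WT, none of these lists held a gene called by edgeR in any knockout.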
